A study of Mus musculus with 76 samples.

Results

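Tumours that received MAP3K11 were compared with tumours that received MAP3K7. The comparison rests on 12 of the 76 arrays of the series, 6 for each gene, chosen by the introduced gene that the labels give. All 76 are Affymetrix arrays of total RNA from tumours of C57BL/6 mice, and the values are log2 signals. One probe set stands for each gene, the one with the highest mean over all arrays. In the directed complementation model, tumours first grew on a doxycycline-inducible oncogene, HER2(V659E). Doxycycline was withdrawn, which turned that driver off, and a gene was introduced in its place. The labels give 13 groups, which are not all different genes. They include HER2 itself, the FGFR2 forms FGFR2aIIIb and FGFR2aIIIc, and RON as RONd160 and as RON+MSP. The MAP3K11 group therefore consists of tumours with the driver off, MAP3K11 introduced and the label cachexia, which is wasting of muscle and fat in cancer. The MAP3K7 group had the same strain and the same withdrawal, received MAP3K7 and is labelled as free of cachexia, as are the other 64 arrays. Each group has 2 arrays for each of the labels T1, T2 and T3, which the labels do not define. The arrays are called biological replicates without naming the animals or tumour lines, so the p-values rest on array-to-array spread, part of which may be technical. For the same reason what the introduced gene did and how tumour lines differ cannot be told apart. The spread behind the p-values was estimated from all 76 arrays, 64 of them outside this comparison. Fitted to the 12 arrays alone, 1283 genes differed at an adjusted p under 0.05 by limma, instead of 2996.

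MAP3K11, also called mixed-lineage kinase MLK3, and MAP3K7, also called TAK1, are kinases at the top of MAP kinase cascades. MLK3 is known for switching on the stress kinase JNK through Map2k4 and Map2k7. TAK1 is activated downstream of the TGF-beta, interleukin-1 and TNF receptors and passes the signal both to the kinases of the NF-kB pathway and to JNK and p38. JNK phosphorylates Jun, a subunit of the transcription factor AP-1. The design text names these 2 genes as the ones tested for their ability to form tumours after loss of the driver.

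Within each group the arrays fell into pairs that resembled each other more than the rest, and in all 38 pairs of the series the 2 arrays carried different T labels. The median correlation of the residuals across genes was 0.771 within pairs and 0.272 between other arrays of a group, so pairs were kept as a block in every test. One MAP3K7 pair, T1 replicate 2 and T3 replicate 1, stood apart. Relative to the mean of all arrays, its arrays correlated across genes at 0.886 with each other, at 0.279 to 0.471 with the MAP3K11 arrays and at -0.207 to -0.006 with the other 4 MAP3K7 arrays. The other 4 correlated at -0.294 to 0.143 with MAP3K11. The pair is called the set-apart pair here, and values are from all 12 arrays unless they are given as without this pair. This is done for some of the calls and counts that change without it, not for all. Array medians over the whole series lay between 5.45 and 5.56, and the trp control probe sets, which match no mouse transcript, had a median of 2.95.

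With all 12 arrays, 2996 of 13868 genes tested (21.6%) differed at an adjusted p under 0.05, 1221 higher in MAP3K11 (8.80%) and 1775 lower (12.8%). At least 2-fold changes made up 333 of the higher (2.40%) and 262 of the lower genes (1.89%). Without the set-apart pair 3477 genes (25.1%) differed, 1379 higher (9.94%) and 2098 lower (15.1%), and 510 (3.68%) and 379 (2.73%) of these at least 2-fold. With each array centred on its median the first comparison gave 1463 higher and 1424 lower, and the second 1673 and 1626. Centred in this way, neither comparison had more lower than higher genes. The 2 comparisons shared 2521 called genes, all with the same sign. In 2035 genes (14.7%) every MAP3K11 array lay on one side of every MAP3K7 array.

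Probe sets for the mouse copies of the introduced genes did not separate the groups. Map3k11 was at 7.22 ± 0.11 in MAP3K11 and 7.27 ± 0.16 in MAP3K7 tumours (SD, n = 6 each; adjusted p = 0.812 by limma). The driver Erbb2, the mouse gene of HER2, was at 6.63 ± 0.19 in MAP3K11 and 6.73 ± 0.20 in MAP3K7 (SD, n = 6 each; adjusted p = 0.642 by limma). Of 6 Map3k7 probe sets none was called, with adjusted p from 0.247 to 0.960, and the one with the lowest p, at 2.48 in MAP3K11 and 2.65 in MAP3K7, lay below the control level. The labels do not state the species of the introduced genes, and a human gene may go unread here, which leaves the labels unchecked.

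The 15 genes that were highest in MAP3K11 include ion channels, neurofilament and axon proteins, milk proteins and surface or secreted proteins of epithelia. They were taken from the 621 genes that were called higher in both comparisons and whose 12 arrays did not overlap. Ano4, of the TMEM16 family of channels and scramblases, was at 8.16 to 8.71 in MAP3K11 (median 8.57) and at 2.58 to 2.92 in MAP3K7 (median 2.80). All 6 MAP3K7 arrays lay below the trp control median, so the log2 difference of 5.69 ± 0.13 (SE, adjusted p = 1.84e-45) is bounded by background. The chloride channel Cftr was at 7.74 to 8.55 in MAP3K11 (median 8.25). In MAP3K7 it was at 4.64 and 3.75 in the set-apart pair and at 2.47 to 2.81 in the other 4 arrays, below the control level. The 2 set-apart values lay above all 64 arrays of the other groups, which reached 3.26. Cftr differed by 4.99 ± 0.22 (SE, adjusted p = 7.19e-28), and by 5.50 ± 0.18 without the pair. It passed the signal filter for testing only through the MAP3K11 arrays. Its direction was thus fixed in advance, and the p-value is no evidence for it.

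The genes of the neurofilament subunits Nefm and Nefl, which lie side by side on chromosome 14, both rose. Nefm (chromosome 14, 68119545 to 68125004 on GRCm38.p6) was at 8.31 to 9.99 in MAP3K11 (median 9.16) and at 3.37 to 4.09 in MAP3K7 (median 3.83). Nefl (68083863 to 68089095) was at 9.02 to 10.82 in MAP3K11 (median 10.04) and at 5.24 to 6.79 in MAP3K7 (median 5.72). The differences were 5.40 ± 0.55 and 4.19 ± 0.90 (SE; adjusted p = 1.48e-11 and 0.000347). Neither gene was confined to MAP3K11: in the other 64 arrays Nefm reached 8.56 and Nefl 10.73. Gap43, a protein of growing axons, was at 11.76 to 12.16 in all 6 MAP3K11 arrays. The MAP3K7 arrays fell into pairs for this gene, with 9.44 and 9.95 in T1 and T2 replicate 1, 7.48 and 6.99 in the set-apart pair and 5.91 and 5.88 in the remaining pair. Gap43 differed by 4.32 ± 0.49 (SE, adjusted p = 3.86e-10).

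The milk genes Csn3, which encodes kappa-casein, and Btn1a1, a membrane protein of milk fat globules, were higher in MAP3K11. Csn3 was at 11.08 to 11.64 in MAP3K11 (median 11.44) and at 4.12 to 9.27 in MAP3K7 (median 7.95), a difference of 3.87 ± 1.01 (SE, adjusted p = 0.00323). Btn1a1 was at 7.84 to 8.92 in MAP3K11 (median 8.03) and at 4.23 to 5.21 in MAP3K7 (median 4.52), a difference of 3.67 ± 0.40 (SE, adjusted p = 1.01e-10). The groups did not overlap in either gene, and Csn3 varied far more among the MAP3K7 arrays than among the MAP3K11 arrays. Of the 9 milk protein genes tested, 3 rose (33.3%, beside 8.80% of all genes tested) and none fell. The third was the lipid droplet protein Plin2 (1.11 ± 0.19, SE, adjusted p = 1.3e-05). Csn3 and Btn1a1 were picked for their differences, so the count is not separate from them.

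Among secreted and surface proteins, Serpinb2, an inhibitor of plasminogen activators, was at 9.90 to 10.59 in MAP3K11 (median 10.35). In MAP3K7 it was at 5.77 and 6.87 in the set-apart pair, at 3.57 and 3.38 in T1 and T2 replicate 1 and at 5.49 and 5.68 in the third pair. It differed by 5.21 ± 0.90 (SE, adjusted p = 1.18e-05). Tmprss11e, a membrane-bound serine protease of epithelia, was at 9.15 to 9.85 in MAP3K11 (median 9.42). The set-apart MAP3K7 arrays came close to that, at 8.06 and 7.58, while the other 4 were at 2.43 to 3.18, around the control level. Its difference was 5.04 ± 1.12 (SE, adjusted p = 0.000553) with the pair and 6.74 ± 1.18 without it.

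Tnfaip6, a hyaluronan-binding protein induced in inflammation, was at 10.20 to 10.74 in MAP3K11 (median 10.67) and at 5.81 to 7.67 in MAP3K7 (median 7.20). Plet1, a surface protein of epithelial progenitors, was at 9.50 to 10.54 in MAP3K11 (median 10.09) and at 5.03 to 6.91 in MAP3K7 (median 6.10). Uox, the urate oxidase of purine breakdown, was at 7.24 to 8.40 in MAP3K11 (median 7.71) and at 4.01 to 4.53 in MAP3K7 (median 4.25). These genes differed by 3.69 ± 0.39, 3.99 ± 0.73 and 3.49 ± 0.19 (SE; adjusted p = 3.95e-11, 3.33e-05 and 1.14e-23). Uox was also above the 64 other arrays, which reached 5.22, whereas Plet1 reached 10.78 among them. The junction protein Igsf5 (3.70 ± 0.37, SE), the eosinophil-associated ribonuclease Rnase2a (3.78 ± 0.75) and the predicted gene Gm3715 (4.43 ± 0.41) complete the 15. Gm3715 varied most within MAP3K11, with 4.71 in T1 replicate 2, 7.14 in its pair partner T2 replicate 2 and 8.50 to 9.64 in the other 4.

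**Figure D1:**
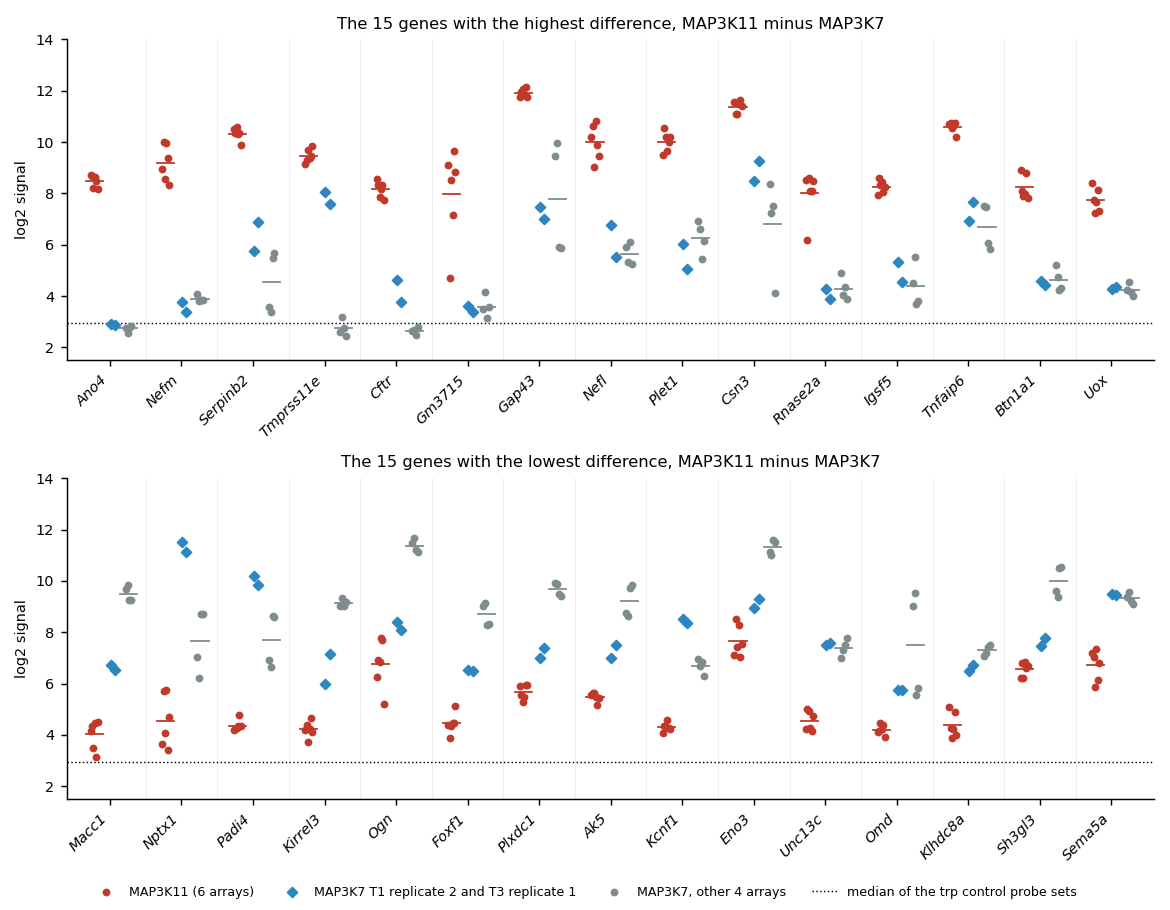
The log2 signal of each of the 12 arrays is plotted for the 15 genes highest and the 15 genes lowest in MAP3K11, with horizontal bars at the mean of the 6 MAP3K11 and of the 4 other MAP3K7 arrays and a dotted line at the trp control median of 2.95. The set-apart pair (diamonds) lies on the MAP3K11 side of all 4 other MAP3K7 arrays in 14 of the 30 genes and on the far side in 4. The 14 include Ano4, for which all MAP3K7 values are below the control median and their order has no meaning.

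RefSeq promoter windows (GRCm38.p6, 250 bases before to 50 after a transcript start) were available for 7 of these 15 genes and for 10 of the 15 lowest. They were searched for the AP-1 element, written as TGANTCA with any base in the middle, because AP-1 is the best known target of JNK. This pattern reads the same on both strands. Windows of 3 of the 7 high genes and of 2 of the 10 low genes held it, beside 6.80% of the genes tested and 8.98% of all genes in the table. The cyclic AMP element TGACGTCA and the kappa B element, GGG, any 2 bases, TT, any base and CC, searched on both strands, were in no window of either set, beside 3.29% and 6.42% of the genes tested. The windows of 3 high genes and 1 low gene are printed 5′ to 3′ on the strand of the gene, with the AP-1 letters in capitals, so that the match can be seen beside the values above. They lie at chr1:107511173-107511472 (plus strand) for Serpinb2, chr2:52037863-52038162 (plus) for Tnfaip6, chr9:50494275-50494574 (plus) for Plet1 and chr4:140774154-140774453 (minus) for Padi4.
Serpinb2: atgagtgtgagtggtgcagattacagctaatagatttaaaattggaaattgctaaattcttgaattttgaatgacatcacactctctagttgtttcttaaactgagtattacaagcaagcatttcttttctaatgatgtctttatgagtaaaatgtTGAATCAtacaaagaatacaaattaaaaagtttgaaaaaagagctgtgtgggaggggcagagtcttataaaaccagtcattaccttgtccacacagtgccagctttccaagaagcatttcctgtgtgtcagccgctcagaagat
Tnfaip6: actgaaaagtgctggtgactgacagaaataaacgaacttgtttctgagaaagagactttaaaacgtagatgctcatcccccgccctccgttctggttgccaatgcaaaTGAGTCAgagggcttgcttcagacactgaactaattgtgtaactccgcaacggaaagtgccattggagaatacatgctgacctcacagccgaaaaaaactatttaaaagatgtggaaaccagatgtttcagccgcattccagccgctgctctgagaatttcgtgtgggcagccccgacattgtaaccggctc
Plet1: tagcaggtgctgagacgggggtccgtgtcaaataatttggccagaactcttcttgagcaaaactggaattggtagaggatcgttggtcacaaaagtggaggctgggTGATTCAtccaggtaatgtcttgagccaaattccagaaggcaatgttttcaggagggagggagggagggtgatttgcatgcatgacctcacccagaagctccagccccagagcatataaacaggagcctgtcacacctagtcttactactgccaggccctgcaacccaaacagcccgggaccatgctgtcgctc
Padi4: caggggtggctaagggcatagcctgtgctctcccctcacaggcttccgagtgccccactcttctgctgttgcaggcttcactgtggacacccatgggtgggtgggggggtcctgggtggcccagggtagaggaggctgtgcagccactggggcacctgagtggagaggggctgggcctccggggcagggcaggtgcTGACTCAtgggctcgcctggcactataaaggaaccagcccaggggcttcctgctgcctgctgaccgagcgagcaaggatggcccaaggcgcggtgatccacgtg
The match starts at base 157 of the Serpinb2 window, 109 of Tnfaip6, 107 of Plet1 and 197 of Padi4. Its middle base is A in Serpinb2, G in Tnfaip6, T in Plet1 and C in Padi4. The counts and shares above hold for the pattern with any middle base and not for a narrower one. Serpinb2, Tnfaip6 and Plet1 are high in MAP3K11 and Padi4 is low, so these letters were found in windows of genes that differ in both directions. A match describes the sequence and is not evidence that a factor binds there.

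The 15 genes that were lowest in MAP3K11 include neuronal proteins, an arginine-modifying enzyme, a mesenchymal transcription factor and matrix proteoglycans. Macc1, known as an inducer of the receptor kinase gene Met, was at 3.15 to 4.51 in MAP3K11 (median 4.26). In MAP3K7 it was at 6.71 and 6.51 in the set-apart pair and at 9.24 to 9.83 in the other 4. The set-apart pair thus lay between the groups, and the difference of -4.51 ± 0.51 (SE, adjusted p = 3.38e-10) was -5.47 ± 0.51 without it. The same order was seen in 9 of these 15 genes. Kirrel3, an adhesion protein of neurons, was at 3.73 to 4.66 in MAP3K11, at 5.99 and 7.13 in the set-apart pair and at 9.02 to 9.34 in the other MAP3K7 arrays (-4.06 ± 0.45, SE, adjusted p = 2.11e-10). Plxdc1, known as a marker of tumour endothelium, was at 5.29 to 5.95 in MAP3K11, at 7.003 and 7.39 in the set-apart pair and at 9.42 to 9.93 in the other 4 (-3.17 ± 0.35, SE, adjusted p = 1.01e-10).

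Eno3, the enolase of muscle, showed the same order with values far from the rest of the series. It was at 7.05 to 8.50 in MAP3K11 (median 7.48), at 8.96 and 9.30 in the set-apart pair and at 11.02 to 11.59 in the other MAP3K7 arrays, and the other 64 arrays lay between 10.49 and 12.22. Eno3 was the only one of 30 skeletal muscle genes called (-2.94 ± 0.28, SE, adjusted p = 8.57e-13). The means of that list, relative to all 76 arrays, were -1.32 to -1.15 in MAP3K11, -1.38 and -1.33 in the set-apart pair and -1.10 to -0.02 in the other 4, and its myosin genes Myh1 and Myh4 averaged 2.86 and 2.78 in MAP3K11, below the control level, and 5.16 and 2.97 in MAP3K7. In bulk tumour RNA, fewer cells of a type and less RNA per cell cannot be told apart. With only the arrays of the 2 groups fitted by limma, the adjusted p of Eno3 was 0.00881. With the mean of the muscle list as a covariate the Eno3 difference was -2.91. Eno3 is itself a member of that list, so the part of muscle content in its difference was not tested by this fit.

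In 3 low genes the set-apart pair lay on the far side, above the other 4 MAP3K7 arrays. Nptx1, a pentraxin of synapses, was at 3.43 to 5.77 in MAP3K11, at 11.52 and 11.13 in the set-apart pair and at 6.20 to 8.72 in the other 4. Padi4, which converts arginine to citrulline in histones, was at 4.21 to 4.76 in MAP3K11, at 10.20 and 9.83 in the set-apart pair and at 6.64 to 8.64 in the other 4. The potassium channel subunit Kcnf1 was at 4.08 to 4.56 in MAP3K11, at 8.53 and 8.35 in the set-apart pair and at 6.30 to 6.95 in the other 4. The differences with all 12 arrays were -4.34 ± 0.74, -4.11 ± 0.52 and -2.97 ± 0.61 (SE; adjusted p = 1.03e-05, 8.83e-09 and 0.00017). Low Padi4 and Kcnf1 were not particular to MAP3K11, since single arrays among the other 64 went down to 4.18 and 3.91.

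Foxf1, a forkhead factor of mesenchyme, was at 3.87 to 5.13 in MAP3K11 (median 4.42), at 6.54 and 6.47 in the set-apart pair and at 8.29 to 9.15 in the other MAP3K7 arrays (-3.52 ± 0.60, SE, adjusted p = 1.03e-05). Its neighbour, the long non-coding RNA Fendrr, followed the same order, at 4.18 to 4.90 in MAP3K11 and 5.20 to 7.68 in MAP3K7 (-2.24 ± 0.60, SE, adjusted p = 0.00447). The adenylate kinase Ak5 (-3.09 ± 0.42), the endophilin Sh3gl3 (-2.65 ± 0.44), the kelch protein Klhdc8a (-2.67 ± 0.24), the synaptic vesicle protein Unc13c (-2.89 ± 0.31) and the axon guidance protein Sema5a (-2.63 ± 0.33) were lower as well.

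Of the 2 proteoglycans among these genes, Ogn was high in every MAP3K7 array outside the set-apart pair, and Omd in T1 and T2 replicate 1 alone. Ogn, or osteoglycin, was at 5.19 to 7.76 in MAP3K11 (median 6.87), at 8.38 and 8.07 in the set-apart pair and at 11.13 to 11.68 in the other MAP3K7 arrays. It differed by -3.55 ± 0.88 between the groups (SE, adjusted p = 0.00184). Set against the average of the 11 remaining groups, Ogn was at -1.37 in MAP3K11 (adjusted p = 0.0852, in a comparison that called 40.2% of genes). In MAP3K7 it was at 2.18 (adjusted p = 0.0223, in a comparison that called 10.3%), and both comparisons share those 11 groups. Omd, or osteomodulin, which neighbours Ogn on chromosome 13, was at 3.93 to 4.45 in MAP3K11 and at 5.57 to 9.54 in MAP3K7 (-2.71 ± 0.75, SE, adjusted p = 0.0056). Its 2 highest values, 9.04 and 9.54, were those of MAP3K7 T1 and T2 replicate 1. High levels were not particular to MAP3K7: the ErbB3 tumours averaged 10.90 for Ogn and 7.38 for Omd, above the MAP3K7 means of 10.33 and 6.91. Against the other 11 groups Omd was at -0.82 in MAP3K11 (adjusted p = 0.250) and at 1.89 in MAP3K7 (adjusted p = 0.0199).

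The gene lists were drawn up from what is commonly known of each pathway or cell type. Each count is of members called with all 12 arrays unless stated. A count given for all 12 arrays alone can differ without the set-apart pair. Without it, ERK feedback genes had 7 higher and 0 lower, mesenchymal genes 3 and 6, and guidance genes 6 and 10. The bar plot of list shares shows both comparisons. Beside the counts stand the shares over all genes tested, 8.80% higher and 12.8% lower, or 9.94% and 15.1% without the set-apart pair. A list near these shares says nothing particular about its members. Of 38 members of the MAP3K, JNK and p38 cascade, 4 rose and 5 fell, and without the set-apart pair 5 rose and 3 fell. Map2k4, the kinase between MLK3 and JNK, was at 9.18 to 9.34 in MAP3K11 and 8.72 to 9.003 in MAP3K7, a small but separate difference of 0.42 ± 0.09 (SE, adjusted p = 0.000213). Mapk8, which encodes JNK1, was at 8.06 to 8.41 in MAP3K11, at 8.31 and 8.29 in the set-apart pair and at 7.74 to 7.86 in the other 4 (0.29 ± 0.11, SE, adjusted p = 0.0446). Map3k20, another kinase of the mixed-lineage family, was at 8.07 to 8.45 in MAP3K11, at 8.57 and 8.74 in the set-apart pair and at 9.95 to 10.11 in the other 4 (-1.32 ± 0.22, SE, adjusted p = 5.91e-06). The kinase of the alternative NF-kB pathway, Map3k14, was at 5.80 to 6.19 in MAP3K11, at 6.21 and 6.31 in the set-apart pair and at 7.01 to 7.25 in the other 4 (-0.86 ± 0.16, SE, adjusted p = 6.34e-05). Map3k5, or ASK1 (-0.90 ± 0.26), and Map2k6, a p38 activator (-0.68 ± 0.19), fell with all 12 arrays and were not called without the pair (adjusted p = 0.129 and 0.074).

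AP-1 factors and JNK response genes formed the list with the largest share of members called higher. Of 28, 12 rose and 1 fell, with a median of 0.43 beside -0.01 over all genes, and without the set-apart pair 15 rose and none fell, with a median of 0.67. Dusp10, a phosphatase that acts on JNK and p38, was at 9.67 to 10.06 in MAP3K11 (median 9.90) and at 6.27 to 7.95 in MAP3K7 (median 6.89), a difference of 2.90 ± 0.29 (SE, adjusted p = 6.53e-12). The related phosphatase Dusp1 was at 10.74 to 11.50 in MAP3K11 (median 11.11) and at 8.45 to 10.53 in MAP3K7 (median 9.58), a difference of 1.67 ± 0.36 (SE, adjusted p = 0.000309). Jund, a subunit of AP-1, was at 10.16 to 10.71 in MAP3K11 and at 9.44 to 10.13 in MAP3K7 (0.63 ± 0.13, SE, adjusted p = 0.000199). In these genes the groups did not overlap. The urokinase receptor Plaur (1.23 ± 0.25) and the early response genes Egr2 (1.26 ± 0.38) and Ier3 (1.21 ± 0.40) rose too. Ier3 was at 11.36 to 12.15 in MAP3K11, at 12.07 and 12.15 in the set-apart pair and at 9.15 to 10.15 in the other 4. The list means, relative to all arrays, were 0.35 to 0.58 in MAP3K11, 0.56 and 0.77 in the set-apart pair and -0.51 to -0.33 in the other 4. Ier2, an early response gene, was the one member that fell (-0.45), and it was not called without the pair (adjusted p = 0.385).

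NF-kB genes, the pathway downstream of TAK1, moved both ways, with 3 of 26 higher and 5 lower. The adhesion receptor Vcam1 was at 7.55 to 7.99 in MAP3K11 and 8.78 to 10.66 in MAP3K7 (-2.04 ± 0.44, SE, adjusted p = 0.000378). Traf1, an adaptor of TNF receptors, was at 4.82 to 5.52 in MAP3K11 and 6.49 to 7.42 in MAP3K7 (-1.5003 ± 0.29, SE, adjusted p = 6.62e-05). The inhibitor Nfkbia was at 11.37 to 11.78 in MAP3K11 and 12.02 to 12.41 in MAP3K7 (-0.71 ± 0.14, SE, adjusted p = 6.65e-05). Rela, the transactivating subunit, went the other way, at 10.24 to 10.48 in MAP3K11 and 9.79 to 10.09 in MAP3K7 (0.41 ± 0.07, SE, adjusted p = 3.2e-06). The groups did not overlap in any of these 4 genes.

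Feedback genes of the ERK pathway rose in 5 of 17 members and fell in 1. Dusp4, an ERK phosphatase, was at 10.61 to 10.999 in MAP3K11, at 11.14 and 11.08 in the set-apart pair and at 7.66 to 9.72 in the other 4 (1.29 ± 0.44, SE, adjusted p = 0.0277). The inhibitor Spry2 was at 8.71 to 9.12 in MAP3K11, at 9.22 and 9.46 in the set-apart pair and at 6.91 to 7.32 in the other 4 (1.08 ± 0.30, SE, adjusted p = 0.00592). Dusp6, whose product is specific for ERK, fell by 0.79 on the log2 scale and was not called without the pair (adjusted p = 0.0996). Among 13 ERBB receptors and ligands, only the ligand Btc rose and the ligand Nrg1 (-0.74) fell. Btc was at 8.96 to 9.69 in MAP3K11, at 10.76 and 10.34 in the set-apart pair and at 5.86 to 6.51 in the other 4, so the difference was 1.63 ± 0.58 (SE, adjusted p = 0.033) with the pair and 3.09 ± 0.50 without it. The ligands Ereg and Hbegf showed the same pattern and were called without the pair alone (1.78 ± 0.29 and 1.67 ± 0.37, SE).

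TGF-beta, BMP and activin genes, whose receptors signal to TAK1, were called in 8 of 39 members (20.5%), 4 each way, near the 21.6% over all genes. Without the set-apart pair 9 were higher and 2 lower. Bmp2 was at 9.54 to 10.93 in MAP3K11, at 11.90 and 11.94 in the set-apart pair and at 5.26 to 5.95 in the other 4. The difference was 2.73 ± 0.76 (SE, adjusted p = 0.00572) with the pair and 4.84 ± 0.62 without it. Bmp4 (-1.37), the matrix protein Ltbp2 (-1.80) and the BMP target Id2 (-1.37) fell with all 12 arrays and were not called without the pair (adjusted p = 0.0566, 0.0927 and 0.0935). The list means of the set-apart pair, 0.74 and 0.91, lay above those of all other arrays of the series, which reached 0.30.

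Secreted factors that have been linked to cachexia were called higher in 3 of 23 members and lower in 1 with all 12 arrays. That share, 17.4%, was below the 21.6% over all genes. Without the set-apart pair 7 were higher and 2 lower. Csf2, which encodes the growth factor GM-CSF, was at 8.36 to 10.84 in MAP3K11 (median 8.90) and at 5.48 to 6.89 in MAP3K7 (median 6.28), with no overlap (3.17 ± 0.65, SE, adjusted p = 0.00018). Its 2 highest values, 10.84 and 10.36, were those of MAP3K11 T2 replicate 1 and T3 replicate 2, which form a pair. Clcf1, a cytokine of the interleukin-6 family, was at 9.32 to 10.11 in MAP3K11, at 9.81 and 9.93 in the set-apart pair and at 7.47 to 7.78 in the other 4 (1.33 ± 0.35, SE, adjusted p = 0.00388). Il11, of the same family, was at 9.37 to 10.45 in MAP3K11 and higher still in the set-apart pair, at 12.73 and 12.21, while the other 4 MAP3K7 arrays were at 5.79 to 6.96. It was called without the pair alone (3.34 ± 0.46, SE, adjusted p = 6.18e-08; with it 1.32 ± 0.65, adjusted p = 0.143). Inhba, which encodes the activin A subunit, was at 12.12 to 12.59 in MAP3K11, at 12.94 and 12.87 in the set-apart pair and at 10.12 to 11.46 in the other 4. It differed by 0.82 ± 0.35 with all arrays (SE, adjusted p = 0.0864) and by 1.52 ± 0.34 without the pair (adjusted p = 0.000435). Il6 and Lif were likewise called without the pair alone, with differences of 1.56 ± 0.53 and 1.02 ± 0.32 (SE), and Lif turned sign, at -0.06 with all 12 arrays. The Lif call was lost when pairs were averaged (adjusted p = 0.0635) or only the arrays of the 2 groups were fitted (adjusted p = 0.116). It was also lost without MAP3K11 T2 replicate 1 and T3 replicate 2 (adjusted p = 0.227) and without MAP3K7 T2 and T3 replicate 2 (adjusted p = 0.083).

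**Figure D2:**
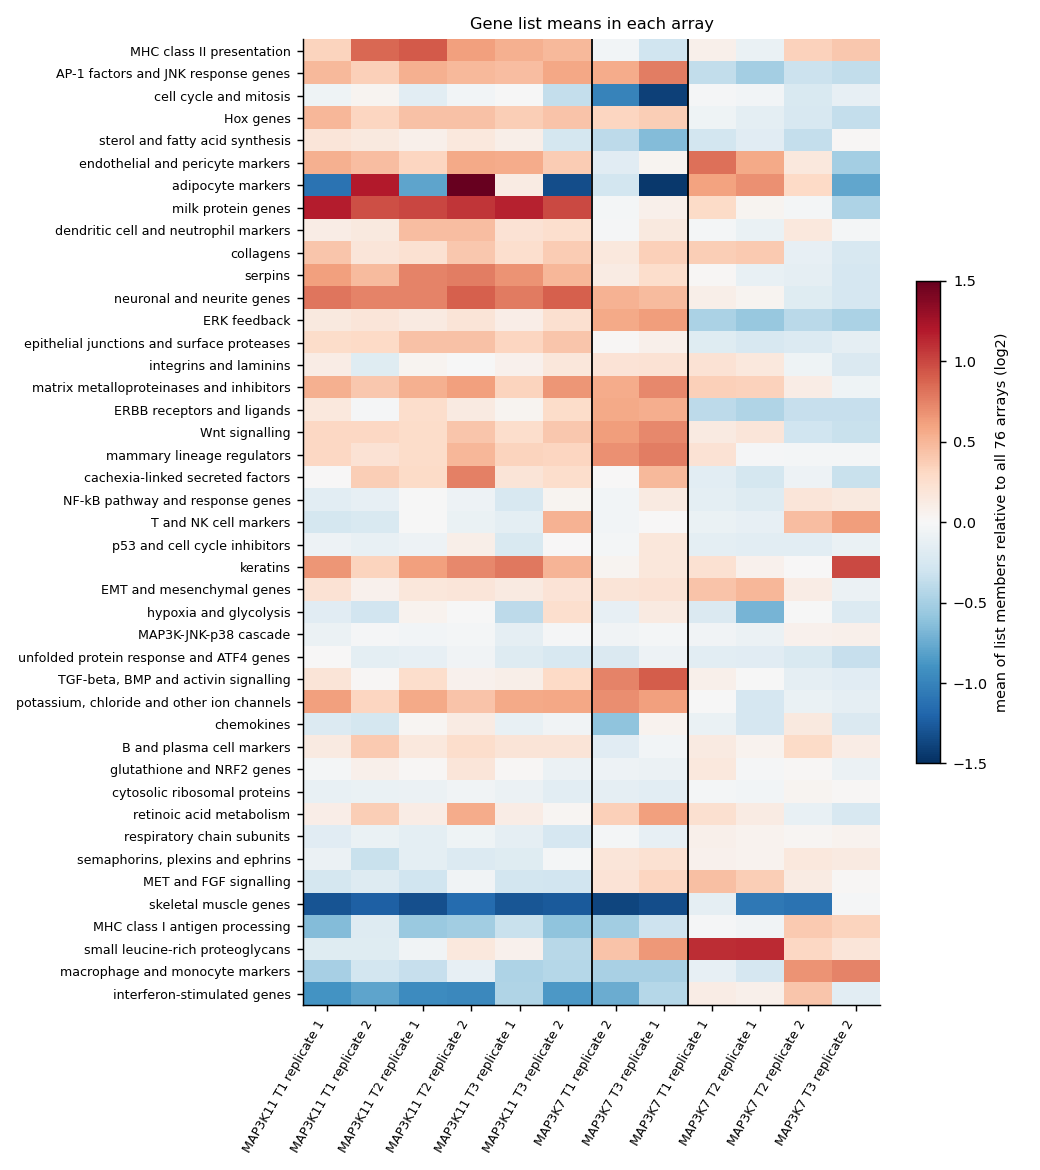
The mean of each gene list's members relative to all 76 arrays (log2, colour scale cut at 1.5 in either direction) is shown for every array, with the 6 MAP3K11 arrays left, the set-apart MAP3K7 pair in the middle and the other 4 MAP3K7 arrays right. AP-1 and ERK feedback lists of the set-apart pair share the sign of MAP3K11, while its cell cycle means, -1.01 and -1.40, are the lowest of the 12 arrays.

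Genes typical of neurons and neurites were called in 9 of 28 members (32.1%), 7 higher and 2 lower, and in 9 members the groups did not overlap. Over all genes tested 21.6% were called, and in 14.7% the groups did not overlap. L1cam, an axonal adhesion protein, was at 8.36 to 9.33 in MAP3K11 and 5.40 to 6.23 in MAP3K7 (3.07 ± 0.26, SE, adjusted p = 7.16e-15). The microtubule protein Stmn4 was at 8.57 to 10.18 in MAP3K11 and 5.05 to 7.33 in MAP3K7 (3.46 ± 0.27, SE, adjusted p = 6.45e-16). Uchl1, the ubiquitin hydrolase of neurons, was at 6.06 to 6.70 in MAP3K11 and 3.07 to 4.41 in MAP3K7 (2.83 ± 0.21, SE, adjusted p = 4.25e-17). Synapsin Syn1 rose by 1.28 ± 0.21. The list was not uniformly higher, since Nptx1 and the kinesin Kif5c (-1.28) fell, the second of which was not called without the set-apart pair (adjusted p = 0.442). Of 31 ion channel genes 5 rose and 4 fell, and without the pair 8 and 4. Next to Ano4 and Cftr, Clca3b, a chloride channel regulator, differed by 3.45 ± 0.66 and the calcium-activated chloride channel Ano1 by 1.20. Cftr passed the signal filter for testing only through the MAP3K11 arrays, so it could count only as higher.

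Regulators of the mammary epithelium were called in 3 of 26 members each way (23.1% in all, near the 21.6% over all genes). Without the set-apart pair 5 were higher and 3 lower. Gata3, the factor of luminal cells, was at 5.19 to 6.09 in MAP3K11 and 7.33 to 8.42 in MAP3K7, with no overlap (-2.26 ± 0.24, SE, adjusted p = 6.96e-11). The oestrogen receptor gene Esr1 fell as well (-0.90). The retinal dehydrogenase Aldh1a3 was at 11.44 to 11.92 in MAP3K11, at 12.38 and 12.10 in the set-apart pair and at 5.81 to 8.92 in the other 4 (2.59 ± 0.88, SE, adjusted p = 0.0274). Other genes of retinoic acid metabolism moved in both directions, with the receptor Rarb (1.64 ± 0.32) and the retinol acyltransferase Lrat (1.55 ± 0.47) higher and the binding protein Crabp2 (-2.44 ± 0.67) lower. Lrat was not called without the pair (adjusted p = 0.0564).

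The tumours carried epithelial markers in both groups. Krt18 was at 12.51 ± 0.14 in MAP3K11 and 11.73 ± 0.63 in MAP3K7, and Epcam at 7.33 ± 0.12 in MAP3K11 and 7.19 ± 0.30 in MAP3K7 (SD, n = 6 each; adjusted p = 0.427 and 0.636 by limma). Krt8 rose by 0.97 ± 0.20 and E-cadherin, Cdh1, by 2.11 ± 0.63 (SE; adjusted p = 0.00019 and 0.0109). Cdh1 was at 7.35 to 7.99 in MAP3K11, at 3.73 and 3.97 in the set-apart pair and at 5.92 to 6.80 in the other 4, and without the pair it was not called (1.29 ± 0.67, SE, adjusted p = 0.159). Of 32 epithelial junction and surface protease genes 6 rose and 1, Pkp2 of desmosomes (-1.93), fell. Besides Tmprss11e and Plet1 these included the desmosomal cadherin Dsc2 (1.96).

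Mesenchymal genes were called in 9 of 20 members and did not move as a block. The transcription factor Twist2 was at 9.58 to 10.98 in MAP3K11 and 6.21 to 7.96 in MAP3K7 (2.81 ± 0.45, SE, adjusted p = 2.61e-06). Tenascin C, Tnc, was at 12.66 to 13.01 in MAP3K11 and 9.38 to 12.65 in MAP3K7 (1.65 ± 0.38, SE, adjusted p = 0.000729). The calcium-binding protein S100a4 fell, at 10.37 to 12.13 in MAP3K11 and 12.27 to 13.38 in MAP3K7 (-1.93 ± 0.20, SE, adjusted p = 9.07e-12). Its 2 higher MAP3K11 values, 12.13 and 11.98, were those of the pair T1 and T2 replicate 2. Zeb2 (0.73) rose, though not without the set-apart pair (adjusted p = 0.0528), while Zeb1 (-0.54), Snai1 (-0.82) and Foxc2 (-1.14) fell.

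In the extracellular matrix, small leucine-rich proteoglycans fell in 5 of 13 members and rose in none. Decorin, Dcn, was at 10.21 to 11.51 in MAP3K11 and 11.97 to 13.05 in MAP3K7 (-1.81 ± 0.38, SE, adjusted p = 0.000287). Without the set-apart pair Bgn and Fmod of the same list were called higher (1.11 ± 0.32 and 2.84 ± 0.46, SE). Of 28 collagen genes 4 rose and 1 fell, the last being Col18a1, the source of endostatin, at 9.98 to 10.72 in MAP3K11, 10.78 and 10.76 in the set-apart pair and 11.999 to 12.20 in the other 4 (-1.21 ± 0.22, SE, adjusted p = 3.79e-05). The protease Adamdec1 was at 10.08 to 11.72 in MAP3K11, at 10.77 and 10.71 in the set-apart pair and at 4.02 to 5.10 in the other 4 (4.36 ± 1.20, SE, adjusted p = 0.00545). Mmp9 was called without the pair alone (2.11 ± 0.70, SE, adjusted p = 0.0192), the pair being at 11.87 and 12.17, above MAP3K11 at 8.66 to 10.85. Integrin genes went both ways, with Itga1 (1.39) higher and Itgb4 (-2.10 ± 0.23) and Itgb8 (-2.72 ± 0.47) lower. Guidance genes fell in 9 of 43 members and rose in 4, with Ntn1, netrin, at -2.39 ± 0.59, Sema3a at -1.41 ± 0.20, the receptor Epha3 at 1.97 and the ligand Slit3 at 1.67.

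Interferon-stimulated genes fell in 8 of 32 members and rose in none, with a median of -0.67. The list means were -0.96 to -0.45 in MAP3K11, -0.75 and -0.43 in the set-apart pair and -0.16 to 0.41 in the other 4. Gbp2, an interferon-induced GTPase, was at 6.31 to 7.47 in MAP3K11 and 8.12 to 9.59 in MAP3K7 (-1.93 ± 0.41, SE, adjusted p = 0.000308). Xaf1 was at 7.12 to 7.83 in MAP3K11 and 8.88 to 9.99 in MAP3K7 (-1.91 ± 0.32, SE, adjusted p = 5.26e-06). The groups did not overlap in these genes, nor in the interferon regulator Irf1 (-0.86 ± 0.18). Genes that process antigen for MHC class I fell in 4 of 17 members and rose in none, among them the peptidase Erap1 (-1.14 ± 0.22) and tapasin, Tapbp (-1.01 ± 0.26). The means of that list were -0.64 to -0.19 in MAP3K11, -0.52 and -0.31 in the set-apart pair and -0.05 to 0.39 in the other 4. Genes of MHC class II presentation were called higher in 3 of 12 members and lower in none, the costimulator Cd80 (1.37 ± 0.35), the transactivator Ciita (0.95 ± 0.27) and H2-DMb2 (0.88). Without the set-apart pair H2-DMb2 was not called (adjusted p = 0.134) and the costimulator Cd86 was called lower (-1.25), which gave 2 higher and 1 lower. The abundant class II genes did not pass, although their arrays were apart, with H2-Ab1 at 11.26 to 11.94 in MAP3K11 and 10.29 to 10.72 in MAP3K7 (1.09 ± 0.51, SE, adjusted p = 0.124).

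Macrophage and monocyte markers fell in 5 of 24 members and rose in 1 with all 12 arrays, and fell in 9 and rose in none without the set-apart pair. The chemokine receptor Cx3cr1 was at 7.13 to 7.69 in MAP3K11 and 7.9997 to 10.62 in MAP3K7 (-1.89 ± 0.53, SE, adjusted p = 0.00613). Its ligand Cx3cl1 was at 6.47 to 7.85 in MAP3K11 and 8.57 to 9.79 in MAP3K7 (-1.91 ± 0.34, SE, adjusted p = 1.94e-05). Ms4a7 (-1.55 ± 0.40), Cd68 (-0.96 ± 0.27) and C1qb (-0.88 ± 0.30) fell, and Marco (0.80) rose, though not without the pair (adjusted p = 0.098). The list means were -0.50 to -0.13 in MAP3K11, -0.48 in both set-apart arrays and -0.25 to 0.75 in the other 4. Dendritic cell and neutrophil markers rose in 3 of 14, with the integrin Itgax at 1.17 ± 0.43. The chemokine Ccl17, known from dendritic cells, was at 8.19 to 10.08 in MAP3K11 and 5.91 to 7.41 in MAP3K7 (2.45 ± 0.36, SE, adjusted p = 5.22e-07). Ccl24, known from macrophages, rose by 2.22 ± 0.61, and Cxcl12, of stromal cells, fell by 1.80 on the log2 scale.

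Of 16 T and NK cell markers only Trbv1, a variable segment of the T cell receptor beta chain, was called. It was at 4.80 to 6.02 in MAP3K11, at 6.32 and 5.80 in the set-apart pair and at 9.30 to 9.74 in the other 4 (-2.83 ± 0.51, SE, adjusted p = 2.24e-05). The means of that list did not follow it, at -0.27 to 0.53 in MAP3K11, -0.04 and 0.00 in the set-apart pair and -0.13 to 0.63 in the other 4. B cell markers gave 1 call of 8, Fcrla (1.56 ± 0.38), endothelial and pericyte markers 1 of 23, Notch3 (1.29 ± 0.32), beside 4 without the set-apart pair, and adipocyte markers 0 of 14 by limma. The adipocyte means ranged from -1.34 to 1.75 among the MAP3K11 arrays, and the part of any of these cell types in the other results was not tested.

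**Figure D3:**
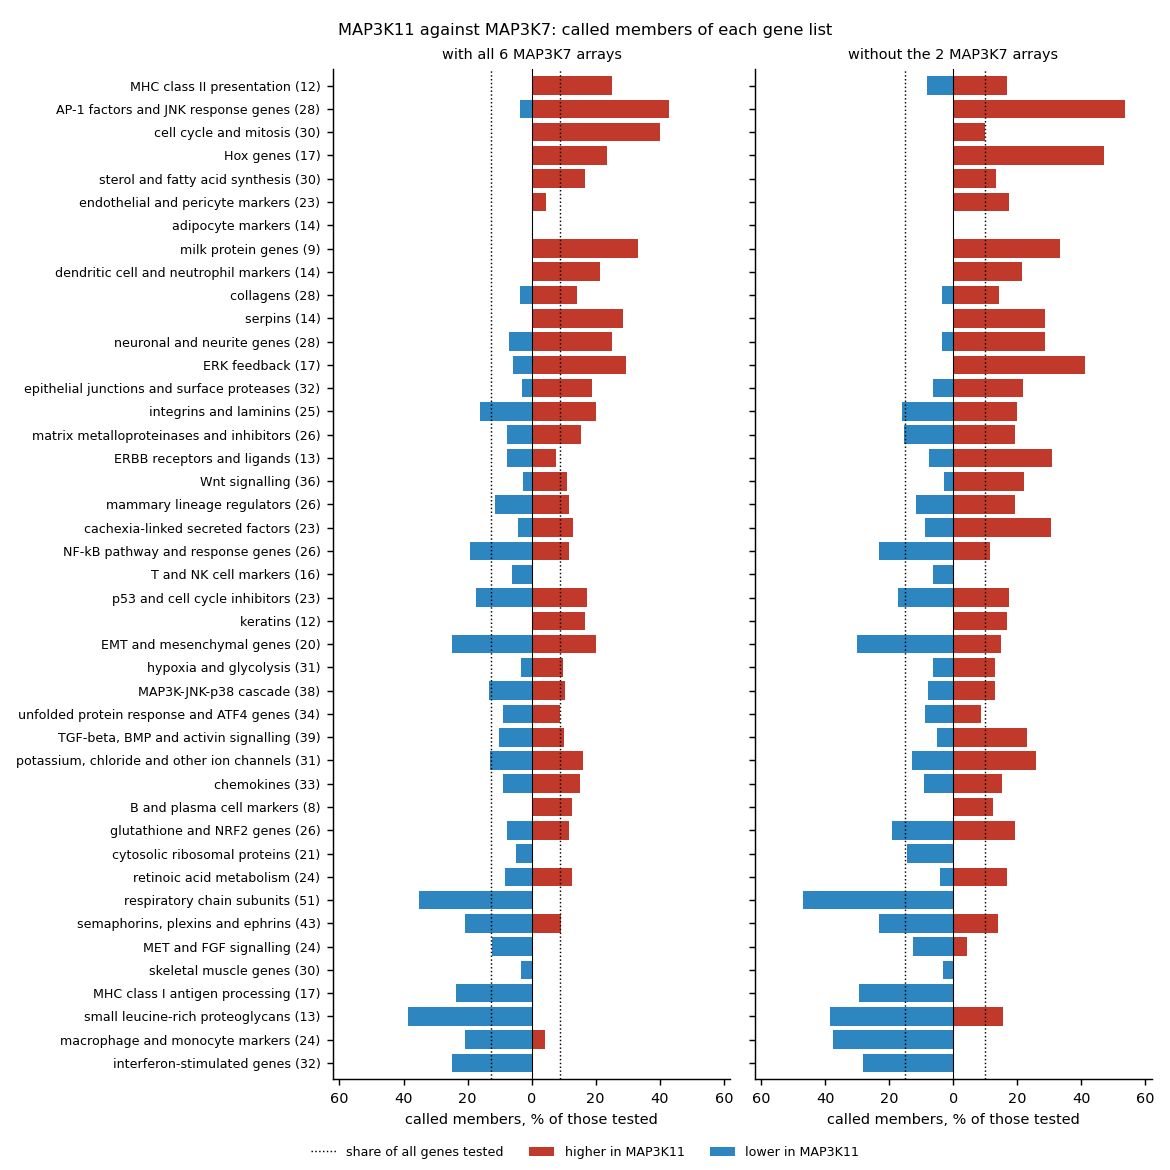
Bars give the share of tested members of each gene list (number tested in brackets) that were called higher (right) or lower (left) in MAP3K11, with all 6 MAP3K7 arrays in the left panel and without the set-apart pair in the right panel. Dotted lines mark the shares over all genes tested, 8.80% higher and 12.8% lower in the left panel and 9.94% and 15.1% in the right. The cell cycle list loses most of its calls in the right panel.

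Cell cycle and mitosis genes rose in 12 of 30 members with all 12 arrays and in 3 without the set-apart pair, with medians of 0.39 and -0.04. Aurka, a mitotic kinase, was at 9.36 to 10.08 in MAP3K11, at 8.26 and 7.92 in the set-apart pair and at 9.06 to 9.36 in the other 4 (0.89 ± 0.19, SE, adjusted p = 0.000276; 0.50 ± 0.18 without the pair, adjusted p = 0.0292). The proliferation marker Mki67 was at 10.74 to 11.05 in MAP3K11, at 9.82 and 9.62 in the set-apart pair and at 10.90 to 11.14 in the other 4, and was called in neither comparison. The list means of the set-apart pair were -1.01 and -1.40, beside -0.36 to 0.04 in MAP3K11, -0.23 to -0.01 in the other 4 and -0.41 or more in the rest of the series. Genes of p53 and of cell cycle inhibitors were called 4 each way, with the p53 target Pmaip1 (1.38 ± 0.38) higher and the stress gene Gadd45b (-1.32 ± 0.22) lower.

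Subunits of the respiratory chain fell in 18 of 51 members and rose in none, by small amounts. Ndufa4 (-0.61 ± 0.15) and Ndufv2 (-0.47 ± 0.07) fell most, and the median of the list was -0.14, beside -0.23 and 24 members without the set-apart pair. Ndufv2 was at 11.19 to 11.35 in MAP3K11 and 11.53 to 11.84 in MAP3K7, with no overlap. Of 31 hypoxia and glycolysis genes 3 rose and 1 fell, and without the pair 4 and 2. The glucose transporter Slc2a3 was at 9.40 to 11.31 in MAP3K11, at 10.04 and 10.11 in the set-apart pair and at 6.21 to 6.70 in the other 4 (2.48 ± 0.46, SE, adjusted p = 4.11e-05). The phosphofructokinase Pfkp averaged 11.13 ± 0.26 in MAP3K11 and 9.33 ± 0.47 in MAP3K7 (SD, n = 6 each), with no overlap (1.80 ± 0.28, SE, adjusted p = 1.04e-06). Sterol and fatty acid synthesis rose in 5 of 30 members, led by Dhcr7 (1.32 ± 0.23) and Hsd17b7 (1.08 ± 0.20), and the antioxidant gene Srxn1 rose by 1.30 ± 0.17. The polyamine enzyme Odc1 was at 12.28 to 12.55 in MAP3K11 and 11.02 to 11.71 in MAP3K7 (1.11 ± 0.13, SE, adjusted p = 2.45e-09).

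Hox genes, which mark position along the body axis, rose in 4 of 17 members, and in 8 without the set-apart pair, and none fell in either comparison. Hoxb2 was at 7.64 to 8.31 in MAP3K11, at 7.91 and 7.67 in the set-apart pair and at 5.17 to 6.30 in the other 4 (1.36 ± 0.28, SE, adjusted p = 0.00015). The list means were 0.32 to 0.50 in MAP3K11, 0.33 and 0.37 in the set-apart pair and -0.36 to -0.07 in the other 4. Wnt genes rose in 4 of 36 members and fell in 1 (13.9%, below the 21.6% over all genes), and without the pair in 8 and 1. The ligand Wnt11 was at 6.67 to 7.72 in MAP3K11 and 5.36 to 6.60 in MAP3K7 (1.32 ± 0.20, SE, adjusted p = 8.3e-07). Wnt5a was lower (-1.12, with an adjusted p of 0.0826 without the pair).

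A further 956 genes were called only without the set-apart pair, 388 higher and 568 lower. Both arrays of the pair were at least 1 log2 unit beyond all 4 other MAP3K7 arrays in 521 genes (3.76%), 348 above and 173 below. For the other MAP3K7 pairs this held in 106 (0.764%) and 149 genes (1.07%), and for the MAP3K11 pairs in 6 (0.0433%), 55 (0.397%) and 23 (0.166%). Beyond all 74 other arrays by that margin, the pair stood above in 47 genes and below in 2. The pair was chosen with earlier results of these same data known, so these counts describe it and are no separate evidence that it differs.

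Of the 956 genes, those in which both arrays of the pair lay within or beyond the range of MAP3K11 were ranked. The 8 with the highest differences were Dsp, Il11, Klhl1, Prss12, Lratd1, Smoc2, Gzme and Ngef. Prss12, a serine protease of synapses, was at 8.13 to 9.07 in MAP3K11, at 10.78 and 10.72 in the set-apart pair and at 4.88 to 6.11 in the other 4 (3.21 ± 0.63 without the pair, SE, adjusted p = 6.44e-05). The matrix protein Smoc2 was at 9.31 to 10.90 in MAP3K11, at 12.06 and 11.98 in the set-apart pair and at 6.51 to 7.22 in the other 4 (3.07 ± 0.65, SE, adjusted p = 0.000217). In 6 of the 8 genes both set-apart arrays were above every MAP3K11 array, the exceptions being Dsp and Gzme. Desmoplakin, Dsp, was uneven in both groups, with 6.37 and 6.91 in MAP3K11 T1 and T2 replicate 2 beside 8.96 to 9.96 in the other 4, and 8.03 in MAP3K7 T3 replicate 2 beside 3.54 to 4.08 in 3 others outside the set-apart pair.

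The 8 with the lowest differences were Acpp, Cavin2, Tenm3, Moxd1, Gatm, Tmeff2, Gm10419 and Fbln5. Acpp, an acid phosphatase, was at 7.24 to 8.82 in MAP3K11, at 4.78 and 4.54 in the set-apart pair and at 10.18 to 11.35 in the other 4 (-2.58 ± 0.94 without the pair, SE, adjusted p = 0.034). Cavin2, a coat protein of caveolae, was at 8.94 to 11.14 in MAP3K11, at 8.75 and 9.36 in the set-apart pair and at 11.64 to 11.89 in the other 4 (-1.67 ± 0.27, SE, adjusted p = 2.09e-06). The set-apart pair was thus further than MAP3K11 from the other MAP3K7 arrays in Acpp and within its range or close to it in Cavin2.

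**Figure D4:**
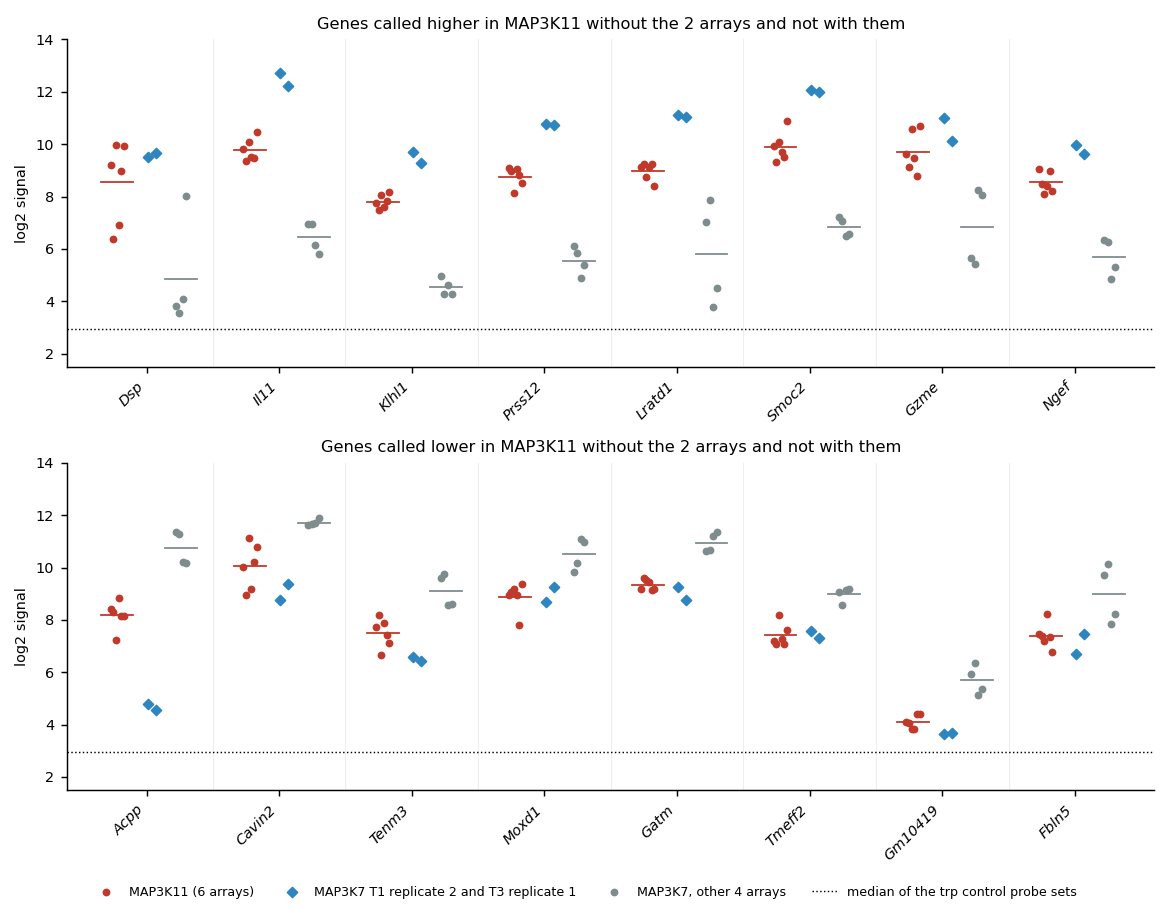
The log2 signal of each array is plotted for the 16 genes called only without the set-apart pair, MAP3K11 left, the set-apart pair (diamonds) in the middle and the other 4 MAP3K7 arrays right, with bars at the means of the first and last and a dotted line at the trp control median of 2.95. In Il11 the pair is at 12.73 and 12.21, above MAP3K11 at 9.37 to 10.45.

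Relative to the mean of all arrays, the MAP3K11 arrays correlated with each other across genes at a median of 0.781. The 4 MAP3K7 arrays outside the set-apart pair did so at 0.243. A group's shared distance from that mean also raises this value, so it does not measure likeness alone. Against the other 11 groups, 40.2% of genes were called for MAP3K11 and 10.3% for MAP3K7. Some genes differed between the MAP3K11 pairs. Clca3b was at 4.72 and 4.89 in T1 and T2 replicate 2 and at 9.05 to 10.49 in the other 4. Cd80 was highest in that same pair, at 8.66 and 8.59, with 6.54 to 7.30 in the others.

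Genes on chromosome 8 had a lower median in MAP3K11. Of 726 tested genes there, 32 were called higher and 180 lower, 29.2% in all. Over all genes tested 21.6% were called, 8.80% higher and 12.8% lower. The median difference on chromosome 8 was -0.15, beside medians between -0.05 and 0.08 for every other chromosome. It was -0.21 without the set-apart pair, and with genes of low signal included it was -0.07 with all 12 arrays and -0.09 without the pair. By array, the chromosome 8 median relative to all arrays was -0.16 to -0.02 in MAP3K11, -0.02 and -0.04 in the set-apart pair, 0.20 and 0.27 in MAP3K7 T1 and T2 replicate 1 and 0.04 and 0.03 in the third pair. Without the arrays at 0.20 and 0.27 the median difference was -0.07. They form a pair, but pairs were found from chromosome medians, so that they share this value is no separate observation. Foxf1, Fendrr, Cdh1, Cx3cl1, Ccl17, Dusp4, Jund and the transcription factor Nfix (-1.29 ± 0.16) lie on this chromosome, 4 of them lower and 4 higher in MAP3K11. Copy number was not measured, and the part of tumour line or copy number in this difference was not tested.

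**Figure D5:**
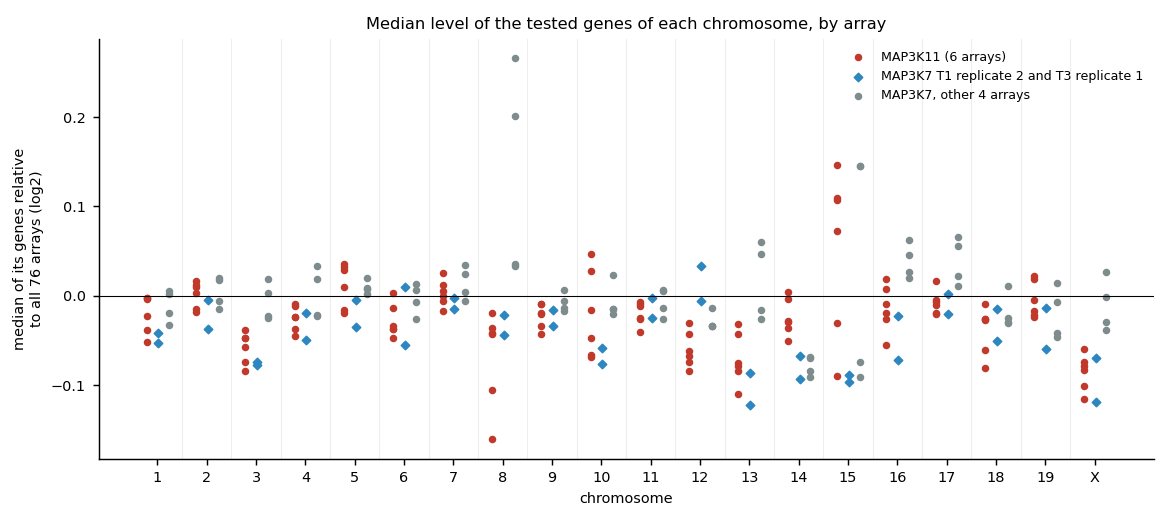
Each point is 1 array and gives the median, over the tested genes of a chromosome, of their log2 level relative to the mean of all 76 arrays, with MAP3K11 left, the set-apart pair (diamonds) in the middle and the other MAP3K7 arrays right. On chromosome 8 the arrays MAP3K7 T1 and T2 replicate 1, at 0.20 and 0.27, lie above all MAP3K11 arrays, which reach -0.02.

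The nearest tested genes beside the 30 highest and lowest genes were examined for shared direction. Positions were known for 29, and of their 53 neighbours outside the 30, 14 (26.4%) were called, beside 21.6% of all genes. Of these 14, 12 went in the direction of the gene beside them. No share over all neighbouring genes was worked out for the direction, and shared control of neighbours was not tested. Tmprss11f, next to Tmprss11e on chromosome 5 and of the same protease family, was at 4.19 to 5.47 in MAP3K11 and at 2.35 to 2.49 in MAP3K7, below the control level (2.67 ± 0.20, SE, adjusted p = 3.31e-17). Integrin Itgb8, next to Macc1 on chromosome 12, was at 4.41 to 6.71 in MAP3K11, at 6.56 and 6.84 in the set-apart pair and at 8.72 to 9.24 in the other 4. Against this, the kinase gene Cdk18, next to Klhdc8a on chromosome 1, was higher in MAP3K11, at 8.65 to 9.18, against 5.16 to 7.40 in MAP3K7 (2.70 ± 0.34, SE, adjusted p = 5.92e-09).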

How the data were processed

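Total RNA of mouse tumours was prepared with RNeasy columns and hybridised as biotinylated cRNA to Affymetrix arrays, per the labels' protocols. The deposited table holds log2 signals of 45101 probe sets on 76 arrays. The submitters' processing notes name affy, and the background correction, normalization and versions are not given in the sources used here. Probe sets were named from the platform annotation: 34958 had 1 gene, 932 several and 9211 none listed, and those without exactly 1 gene were left out. One probe set was kept for each of 18194 genes, the one highest on average. Testing required a gene to exceed its array's 40th percentile in at least 4 arrays, and 13868 genes did. A gene above it only in MAP3K11 or only in MAP3K7 also passed, and could then differ only in that direction. Genes of this kind can be among the highest and lowest genes and in the list counts.

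MAP3K11 was compared with MAP3K7 by limma 3.58.1 (R 4.3.3), fitted to all 76 arrays with introduced gene and T label as terms and pairs of arrays as a random block. The estimated correlation within pairs was 0.628. P-values are two-sided and Benjamini-Hochberg adjusted over all genes tested, and the comparison without the set-apart pair is the same fit to 74 arrays (correlation 0.605). Values for the introduced genes came from the same model fitted to 29976 probe sets. Pairs were found from the medians of the autosomes in each array. The fit was tested on simulated data. The number of arrays limits the precision.

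Named genes are the 15 highest and 15 lowest that were called in both comparisons with arrays that did not overlap, up to 4 called members a list, the 8 highest and 8 lowest called only without the set-apart pair, the introduced genes and the most abundant called genes. Other list members are named after their values were seen. The comparison, its members and the 43 lists were chosen with earlier results of these data known. Alternatives covered the block, arrays, filter, normalization, probe set, threshold, muscle content and each pair left out. The gene that the title of the series names is left out of the text.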

Additional observations from a re-analysis of the deposited data

Results flagged for a closer look

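Within the 6 arrays of each group, single arrays stood far from the others in 5 of 332 groups of values examined (166 genes in 2 groups), and chance alone gives about 1 in 20. Rnase2a was at 6.19 in MAP3K11 T1 replicate 2 and at 8.09 to 8.60 in the other MAP3K11 arrays. Moxd1 was at 7.79 in MAP3K11 T3 replicate 1 and at 8.95 to 9.38 in the others. Padi4 was highest in MAP3K11 T3 replicate 1, at 4.76, with 4.21 to 4.36 in the others. Mki67 was highest in MAP3K11 T1 replicate 1, at 11.05, with 10.74 to 10.85 in the others. The mouse probe set of Map3k11 was lowest in MAP3K11 T1 replicate 2, at 7.01, with 7.20 to 7.31 in the others.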

How the results depend on the processing

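Counts of called genes depended on the threshold, the arrays fitted and the treatment of pairs. With all 12 arrays, 5189 genes were called without the pair block (2299 higher, 2890 lower), 1283 from the MAP3K11 and MAP3K7 arrays alone (551 and 732), 1782 at an adjusted p under 0.01 (730 and 1052) and 595 with an absolute difference of at least 1 (333 and 262). Leaving out each pair in turn gave 1998 to 3477 (837 to 1379 higher, 1140 to 2098 lower), the fewest lower calls without MAP3K7 T2 and T3 replicate 2. Without the set-apart pair, 5542 genes were called with no pair block (2341 and 3201), 2239 at an adjusted p under 0.01 (905 and 1334) and 889 with a difference of at least 1 (510 and 379). Leaving out a further pair gave 1993 to 3072 (772 to 1196 higher, 1221 to 1876 lower), the fewest again without MAP3K7 T2 and T3 replicate 2, which leaves 2 MAP3K7 arrays. Of 166 named genes, called or not, 40 lost a call with all 12 arrays when only the 2 groups were fitted, 22 with pair means and 18 with the replicate block, and without the set-apart pair 9, 17 and 3 did. The chromosome 8 median with no filter was -0.0658 with all arrays, beside -0.148, and -0.0937 without the set-apart pair, beside -0.206. The causes were not tested. The fit with T label and number as a replicate block called 3018 genes with all arrays and 3693 without the pair. Same-numbered arrays deviated together at correlations of -0.262 to 0.122, and 0 of 6 correlated best with its own number, so the numbers do not pair the arrays. With each pair left out in turn the Lif difference ranged from -0.61 to 1.02, and it reversed, to 1.02, without the set-apart pair.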
